A study of Homo sapiens with 40 samples.

Results

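BT474 cells that had been starved of serum were compared with the same cells 24 h after they received only the vehicle, so that the comparison shows how their RNA drifted over a day without an added ligand. The 4 libraries compared, of 40 in the series, are 2 labelled as baseline (T0) and 2 labelled as the 24 h control, and they were taken by those labels. The comparison itself was chosen with earlier results of these data known. The 25146 genes counted at least once in 10 or more of the 20 BT474 libraries were tested. BT474 is a HER2-positive breast cancer line with luminal features that responds to trastuzumab, the antibody against HER2. The cells were grown in complete medium, moved overnight to medium with very little serum, and collected at the end of that starvation as T0. The paper describes both its maintenance and its starvation medium as free of phenol red. For the vehicle group, water was added in freshly made starvation medium and the cells were collected after 1 h, 12 h or 24 h. Both groups compared were therefore starved and given neither ligand nor drug, and the labels name no engineered allele for them. The rest of the series holds BT474 cells given epidermal growth factor (EGF) or heregulin (HRG) for the same times, and the same 10 groups in BT474R, a single clone of BT474 that had been grown in trastuzumab. The 24 h group differs from T0 in its further time in low serum and in its change of medium, and the 2 cannot be told apart in these data. The vehicle libraries at 1 h and 12 h serve to place each change in time.

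As background, cells deprived of growth factors tend to pause before S phase, the phase of DNA copying, and the genes for replication proteins and for mitosis are transcribed in successive waves as cells move on. The replication wave is driven by E2F transcription factors, and the mitotic wave by complexes that bind a promoter element called CHR. Growth-factor signalling also sets the rates of glycolysis, lipid synthesis and ribosome production. Hypoxia-inducible factors (HIF) raise glycolytic genes and SREBP factors raise the genes of sterol and fatty acid synthesis. HER2, the product of ERBB2, is amplified in this line and signals through the ERK and AKT pathways even with little serum.

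Counts are given as CPM, the usual scaling of counts to library size (here after TMM), and differences as log2 fold changes of 24 h over T0 with the standard error of the fit (n = 2 libraries per group). The 4 libraries held between 19200632 and 24915217 counts on genes, and their 50 most abundant genes took between 14.3% and 15.2% of them. The summed level of 11 luminal markers lay between 14569 and 16518 CPM, and all of them were well above the detection limit of 3 counts. Of 11 markers of stromal and blood cells, 9 had 3 counts or fewer in each of the 4 libraries, and the sum of the list, nearly all from VWF, was between 16.7 and 23.8 CPM. Treatments were done in duplicate, and the sources used here do not mention separate passages or days, so p-values measure the spread between these duplicates.

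At 24 h, 1299 of 25146 genes (5.17%) were higher than at T0 and 1567 (6.23%) were lower, 11.4% in all, at an adjusted p under 0.05 by the quasi-likelihood test of edgeR, adjusted after Benjamini and Hochberg. Most of these differences were small. Their median size was 0.31 on the log2 scale, 120 genes were more than 2-fold higher and 111 more than 2-fold lower, and in 99.9% of the genes called both libraries of one group lay beyond both of the other. With 2 libraries per group such a lack of overlap is common, and 5736 of all 25146 genes were higher and 6799 lower in this sense. The median over all genes was -0.014. Among genes grouped by transcript length, the 2620 shortest, up to 2194 bases, had a median of -0.042, with 5.92% higher and 11.5% lower. The 2618 longest, from 6257 bases, had a median of 0.0017, with 12.5% higher and a smaller share lower. Ribosomal protein, oxidative phosphorylation, histone and metallothionein genes have short transcripts, with list medians of 1915, 1795.5, 797 and 1573 bases. Whether length contributes to their falls was not tested. Against the same T0 libraries, 3.67% of genes were higher and 2.94% lower after 1 h of vehicle, and 3.15% were higher and 3.26% lower after 12 h. Between 12 h and 24 h of vehicle, 1.85% of genes rose and 1.76% fell. The higher and lower counts were 940 and 731 without the first T0 library, 898 and 992 without the second, 1048 and 998 without the first 24 h library and 983 and 809 without the second, so which direction held more genes depended on the libraries used. It depended on the method too, with 1119 higher and 1073 lower by DESeq2, 1400 and 1382 with copies of a gene summed, and 1675 and 1585 with only the compared libraries in the fit.

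**Figure D1:**
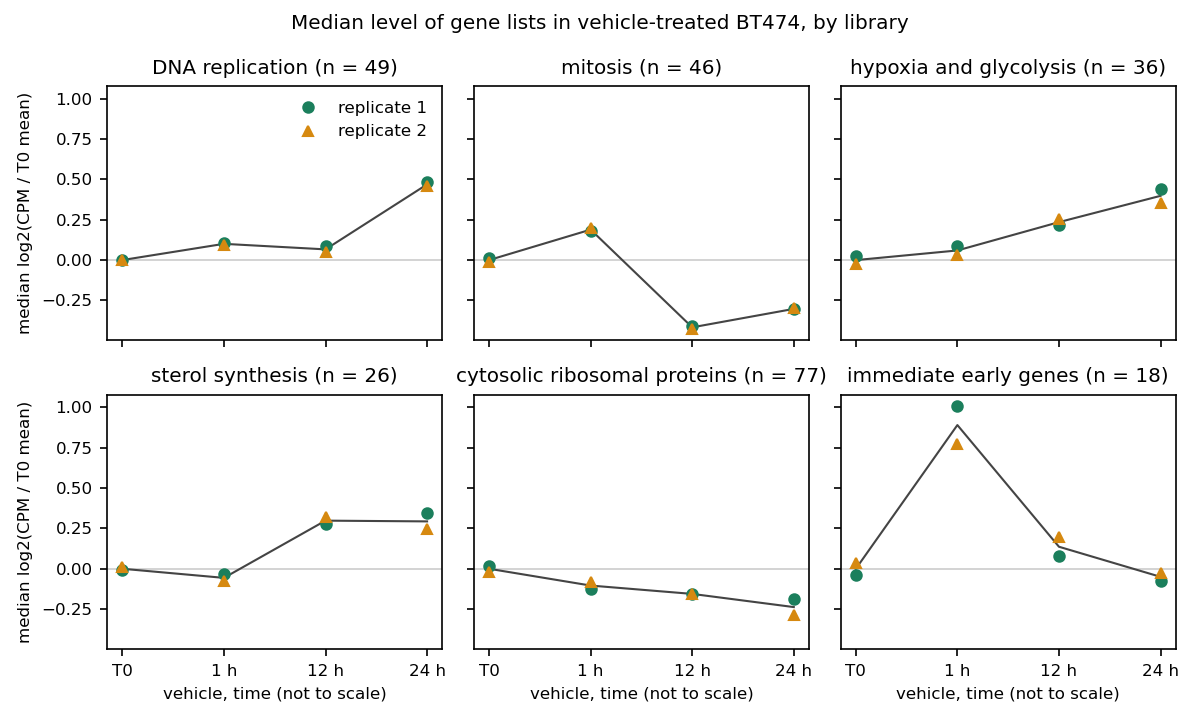
Median over each list of log2(CPM / mean CPM of the 2 T0 libraries), plotted for the 2 replicates of T0 and of vehicle after 1 h, after 12 h and after 24 h, with a line through their mean. Replication genes stand at 0.482 and 0.456 at 24 h after values between 0.047 and 0.105 at 1 h and 12 h, mitotic genes at -0.305 and -0.299, and immediate early genes, highest at 1 h, are near 0 at 24 h.

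Genes of DNA replication rose together late in the day. Of 49 members of this list, 46 were higher at 24 h than at T0 and 0 were lower, with a median log2 fold change of 0.47 against -0.014 over all genes. At 12 h only 11 of them were higher and 1 was lower (median 0.078), while 45 rose between 12 h and 24 h (median 0.40). In bulk RNA, more cells in S phase and more of these transcripts per cell cannot be told apart.

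All 7 genes of the MCM group were higher, with a median of 0.53. MCM10, which helps to activate the replicative helicase, was at 31.1 and 28.3 CPM at T0 and 54.3 and 54.0 CPM at 24 h, a log2 fold change of 0.86 ± 0.061 (adjusted p = 2.06e-13). MCM6, a subunit of the helicase itself, was at 88.2 and 87.4 CPM at T0 and 142 and 140.4 CPM at 24 h (log2 0.68 ± 0.043). The libraries of the groups stood far apart in both genes, and the pair within each group differed little. MCM7 and MCM4 were the least changed of the group, with log2 fold changes of 0.33 ± 0.038 and 0.31 ± 0.040. Among the factors that license and fire origins, 11 of 12 were higher (median 0.57). DTL, which directs the licensing factor CDT1 to degradation, was at 27.0 and 25.4 CPM at T0 and 50.8 and 52.5 CPM at 24 h (log2 0.98 ± 0.064, adjusted p = 2.87e-14). CDC6, which loads the helicase onto origins, was at 42.2 and 39.7 CPM at T0 and 73.3 and 71.2 CPM at 24 h (log2 0.82 ± 0.059). DTL was close to double its T0 level in each 24 h library, and CDC6 somewhat less. GINS3, a member of the GINS complex of the moving fork, did not pass the test (0.27 ± 0.096).

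Of 17 polymerases, clamp and loader genes, 15 were higher (median 0.41). PCNA, the sliding clamp, was at 112 and 109 CPM at T0 and 171 and 163 CPM at 24 h (log2 0.60 ± 0.046), and FEN1, the nuclease that trims Okazaki fragments, at 76.1 and 77.6 CPM at T0 and 122 and 109 CPM at 24 h (log2 0.59 ± 0.051). PRIM2 and RFC3 did not pass, with log2 fold changes of 0.063 ± 0.086 and -0.046 ± 0.067, and they stand at the foot of the plot of replication members. All 6 genes of nucleotide supply were higher (median 0.47). RRM2, the regulated subunit of ribonucleotide reductase, was at 117 and 109 CPM at T0 and 194 and 193 CPM at 24 h (log2 0.77 ± 0.048, adjusted p = 7.51e-15), whereas its partner RRM1 moved by 0.18 ± 0.045. All 7 E2F factors and their close partners were higher, with the largest median of the roles, 0.71. E2F1, an activator of the replication genes, was at 15.3 and 14.8 CPM at T0 and 30.1 and 29.6 CPM at 24 h (log2 0.98 ± 0.075, adjusted p = 1.4e-12). Both 24 h libraries were near double the T0 level. CCNE1 and CCNE2, the cyclins E that start S phase with CDK2, had log2 fold changes of 0.53 ± 0.11 and 0.71 ± 0.068, and both were already at 0.47 and 0.40 after 12 h. E2F7 and E2F8, which repress E2F targets, were at 0.68 ± 0.095 and 0.56 ± 0.11.

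**Figure D2:**
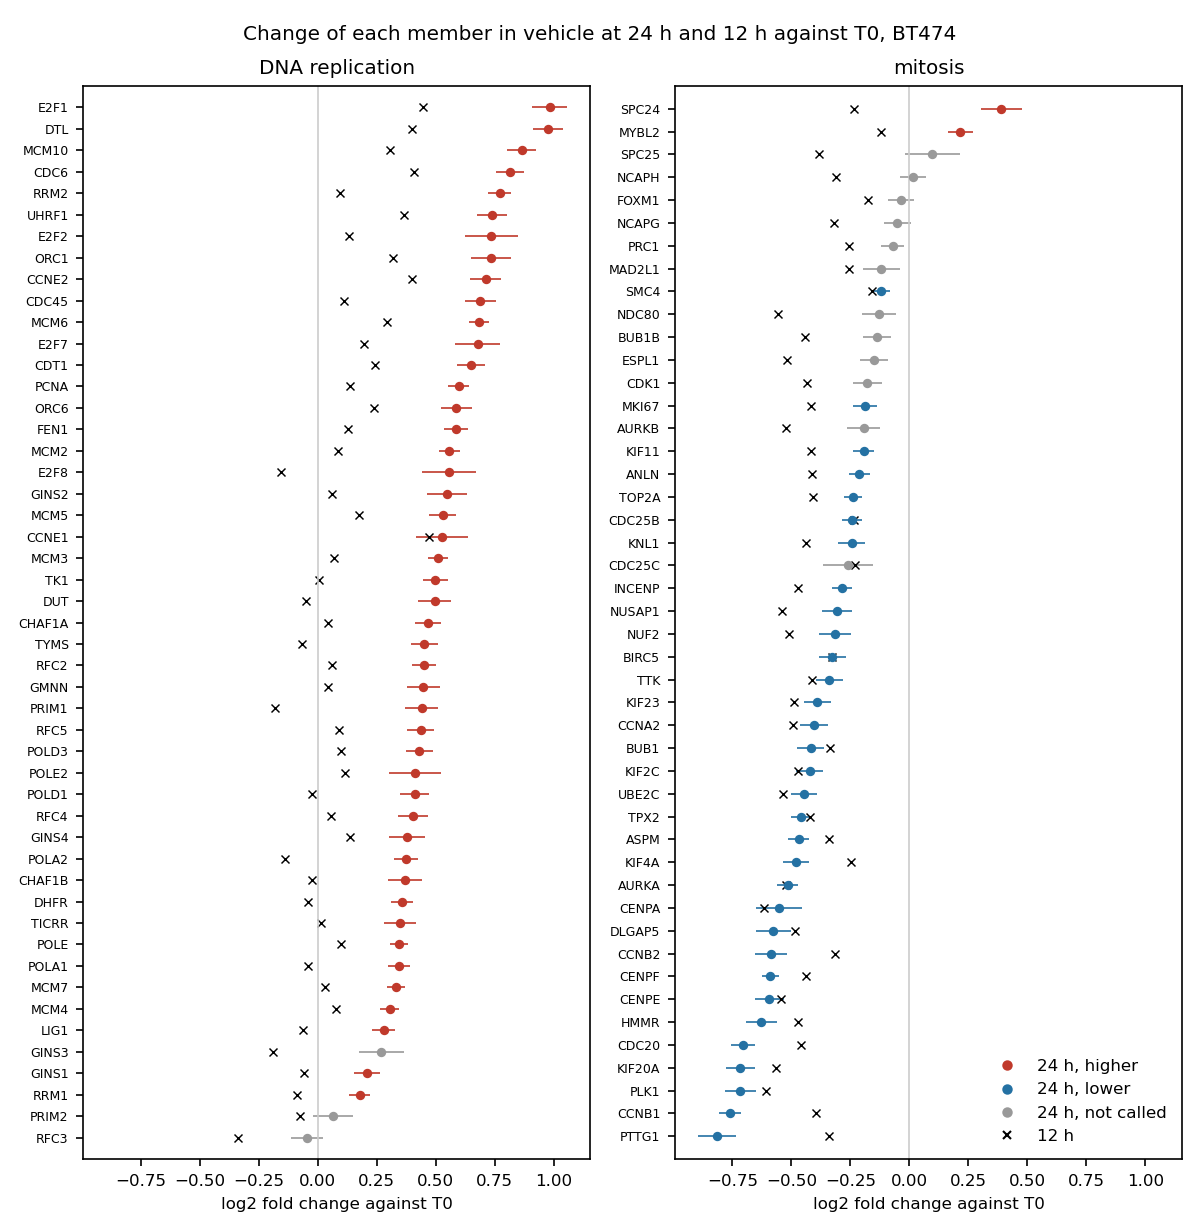
Log2 fold change against T0 of each member of the replication and mitosis lists in BT474 given vehicle, with dots and standard error bars for 24 h (red higher, blue lower, grey not called) and crosses for 12 h. 46 of 49 replication genes are red and lie right of their crosses, and 32 of 46 mitosis genes are blue.

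The promoters of these genes are shown because the members moved together. RefSeq's promoter table (GRCh38.p14) matched 15526 of the 25146 genes tested by symbol, and the 250 bases before each start were searched on both strands. For E2F, the letters GCGGGAA and GCGCGAA were searched, and 18 of the 42 replication genes with an entry (42.9%) held a match, against 10.1% of all promoters. A match is a description of letters and not a binding site. The windows below are the nearest match to the start in the 2 called members of at least 1 CPM with the largest fold change that hold one, with the matched letters in capitals.
DTL, chr1:212035610-212035676, plus strand: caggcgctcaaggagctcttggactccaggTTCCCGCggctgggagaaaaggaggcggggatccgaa
UHRF1, chr19:4909457-4909500, plus strand: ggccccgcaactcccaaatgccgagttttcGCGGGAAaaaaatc
The match in UHRF1, whose product reads DNA methylation at the fork and which was at 38.2 and 39.0 CPM at T0 and 65.1 and 63.7 CPM at 24 h (log2 0.74 ± 0.064), lies between 8 and 14 bases before the start, and that in DTL between 102 and 108 bases before it.

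Genes of mitosis were lower at 24 h, and their fall came before the rise of the replication genes. Of 46 members, 32 were lower at 24 h and 2 were higher, with a median log2 fold change of -0.31. The path was not a steady fall. After 1 h of vehicle 26 were higher than at T0 (median 0.19), after 12 h 42 were lower (median -0.42), and from 12 h to 24 h 18 rose again and 6 fell further.

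Among 19 cyclins, kinases and regulators, 11 were lower and 1 was higher. CCNB1, the cyclin B that drives entry into mitosis with CDK1, was at 105 and 107 CPM at T0 and 63.0 and 62.1 CPM at 24 h, a log2 fold change of -0.76 ± 0.047 (adjusted p = 7.51e-15). PTTG1, the securin that holds back sister separation, was at 34.6 and 31.5 CPM at T0 and 20.2 and 17.6 CPM at 24 h (log2 -0.81 ± 0.081). PLK1, a kinase of mitotic entry and exit, was at 63.6 and 59.6 CPM at T0 and 37.8 and 37.3 CPM at 24 h (log2 -0.72 ± 0.065), and CDC20, an activator of the anaphase-promoting complex, at 87.6 and 90.5 CPM at T0 and 55.7 and 53.6 CPM at 24 h (log2 -0.71 ± 0.052). In all of these the 24 h libraries lay well below both T0 libraries. CDK1 itself did not pass (-0.18 ± 0.061), nor did FOXM1, a factor that drives mitotic genes (-0.035 ± 0.054). MYBL2, which is itself an E2F target and joins FOXM1 on mitotic promoters, was higher, at 63.7 and 60.9 CPM at T0 and 73.2 and 71.6 CPM at 24 h (log2 0.22 ± 0.052).

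Of 27 genes of the kinetochore, spindle and condensin, 21 were lower and 1 was higher. KIF20A, a kinesin of cytokinesis, was at 79.8 and 81.5 CPM at T0 and 47.7 and 50.4 CPM at 24 h (log2 -0.72 ± 0.060). CENPF, a large kinetochore protein, was at 330.0 and 328 CPM at T0 and 216 and 221 CPM at 24 h (log2 -0.59 ± 0.037, adjusted p = 8.1e-15). Each was lower in both libraries, and most of the fall of CENPF was present by 12 h (-0.44). MKI67, the gene of the proliferation marker Ki-67, was lower by less, at 189.7 and 190.0 CPM at T0 and 165 and 168 CPM at 24 h (log2 -0.19 ± 0.052), after -0.42 at 12 h. SPC24, a subunit of the NDC80 kinetochore complex, was the member that rose, at 15.1 and 13.5 CPM at T0 and 18.9 and 18.8 CPM at 24 h (log2 0.39 ± 0.088), and without the second T0 library 0 of the 46 were called higher. Among the members that still moved, CCNB1, CCNB2 and PTTG1 fell from 12 h to 24 h, with log2 fold changes of -0.36, -0.27 and -0.48, while NDC80 and ESPL1 rose from 12 h to 24 h, with 0.43 and 0.37.

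The CHR letters TTTGAA were found on either strand in 21 of the 39 mitosis genes with a promoter entry (53.8%), in 1 of 42 replication genes (2.38%) and in 9.85% of all promoters. The E2F letters were found in 8 of the 39 mitosis genes (20.5%). The windows are shown for the same reason and by the same rule as above.
PLK1, chr16:23678830-23678888, plus strand: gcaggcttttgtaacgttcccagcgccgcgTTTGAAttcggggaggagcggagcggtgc
CDC20, chr1:43358886-43358951, plus strand: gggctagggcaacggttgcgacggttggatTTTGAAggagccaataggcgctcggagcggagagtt
In PLK1 the match lies between 24 and 29 bases before the start, and in CDC20 between 60 and 65 bases.

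Most listed genes of G1 were not called, although the cyclins E, counted above with the replication genes, rose. Of 15 G1 cyclins, kinases and CDK inhibitors, 4 were higher and 1 was lower, with a median of -0.034, beside 5.17% higher and 6.23% lower of all genes. The higher ones included 3 of the 6 G1 cyclins and kinases. CDK2, the kinase partner of cyclin E, was at 78.0 and 77.3 CPM at T0 and 98.8 and 105 CPM at 24 h (log2 0.40 ± 0.051), and CCND1, cyclin D1, at 529.8 and 533 CPM at T0 and 573 and 586 CPM at 24 h (log2 0.13 ± 0.040). CDKN1A, the inhibitor p21, was at 7.23 and 7.13 CPM at T0 and 8.68 and 7.15 CPM at 24 h and did not pass at 24 h (log2 0.13 ± 0.13), although after 1 h of vehicle its log2 fold change had been 3.40. CDKN2C, another CDK inhibitor, was lower (-0.32 ± 0.11). With the second T0 library or the second 24 h library left out, 2 of the 15 were higher. MYC, a driver of growth genes, was lower, at 48.8 and 52.4 CPM at T0 and 39.5 and 37.4 CPM at 24 h (log2 -0.39 ± 0.062).

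HIF targets and glycolytic enzymes rose through the day. Of 36 members, 24 were higher at 24 h and 0 were lower, with a median of 0.40, after 21 higher at 12 h (median 0.24) and 5 at 1 h. From 12 h to 24 h 11 rose further and 0 fell. HIF1A and EPAS1, which encode the HIF alpha subunits, did not pass (0.048 ± 0.038 and -0.064 ± 0.092).

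Among 14 HIF factors and targets outside glycolysis, 8 were higher (median 0.48). NDRG1, a stress-responsive differentiation gene, was at 119 and 112 CPM at T0 and 261 and 227 CPM at 24 h (log2 1.08 ± 0.098, adjusted p = 1.31e-10). P4HA1, a collagen prolyl hydroxylase, was at 42.2 and 38.7 CPM at T0 and 84.3 and 81.3 CPM at 24 h (log2 1.03 ± 0.067), and VEGFA, the angiogenic ligand, at 62.3 and 67.3 CPM at T0 and 131 and 123 CPM at 24 h (log2 0.97 ± 0.061). All of these doubled or nearly so in both libraries. BNIP3 and BNIP3L, receptors for removal of mitochondria, were at 0.71 ± 0.12 and 0.55 ± 0.054. CA9, the carbonic anhydrase often used as a hypoxia marker, had 1 and 0 counts at T0 and 6 and 14 at 24 h, at least 3.06-fold higher when T0 is set at 3 counts per library. EGLN3, a prolyl hydroxylase that marks HIF for degradation, did not pass (0.19 ± 0.084).

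Of 22 genes of glucose transport and glycolysis, 16 were higher (median 0.39). ALDOC, an aldolase, was at 1.55 and 1.38 CPM at T0 and 4.19 and 3.79 CPM at 24 h (log2 1.43 ± 0.24). PFKFB3, which makes the activator of phosphofructokinase, was at 19.2 and 18.002 CPM at T0 and 44.3 and 42.0 CPM at 24 h (log2 1.21 ± 0.12, adjusted p = 1.99e-09), and PDK1, which holds pyruvate out of the mitochondrion, at 12.1 and 12.6 CPM at T0 and 29.1 and 26.2 CPM at 24 h (log2 1.16 ± 0.12). The increases ran through the pathway. LDHA, lactate dehydrogenase, was at 78.2 and 78.9 CPM at T0 and 166 and 151 CPM at 24 h (log2 1.01 ± 0.062), PGK1 at 398 and 387 CPM at T0 and 569.9 and 554 CPM at 24 h (log2 0.52 ± 0.052) and GAPDH at 2218 and 2131 CPM at T0 and 2659 and 2619.7 CPM at 24 h (log2 0.28 ± 0.029). The most abundant enzymes, GAPDH and PKM, had small but clear differences, and PKM, pyruvate kinase, was at 1671 and 1619 CPM at T0 and 1985 and 1920.2 CPM at 24 h (log2 0.25 ± 0.031). SLC2A1, a widely used glucose transporter, HK1 and PFKL did not pass (0.15 ± 0.051, 0.064 ± 0.035 and 0.070 ± 0.046), whereas HK2, the inducible hexokinase, was higher (0.57 ± 0.061). LDHA and GPI have further rows of the same name in the table, which were kept apart.

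**Figure D3:**
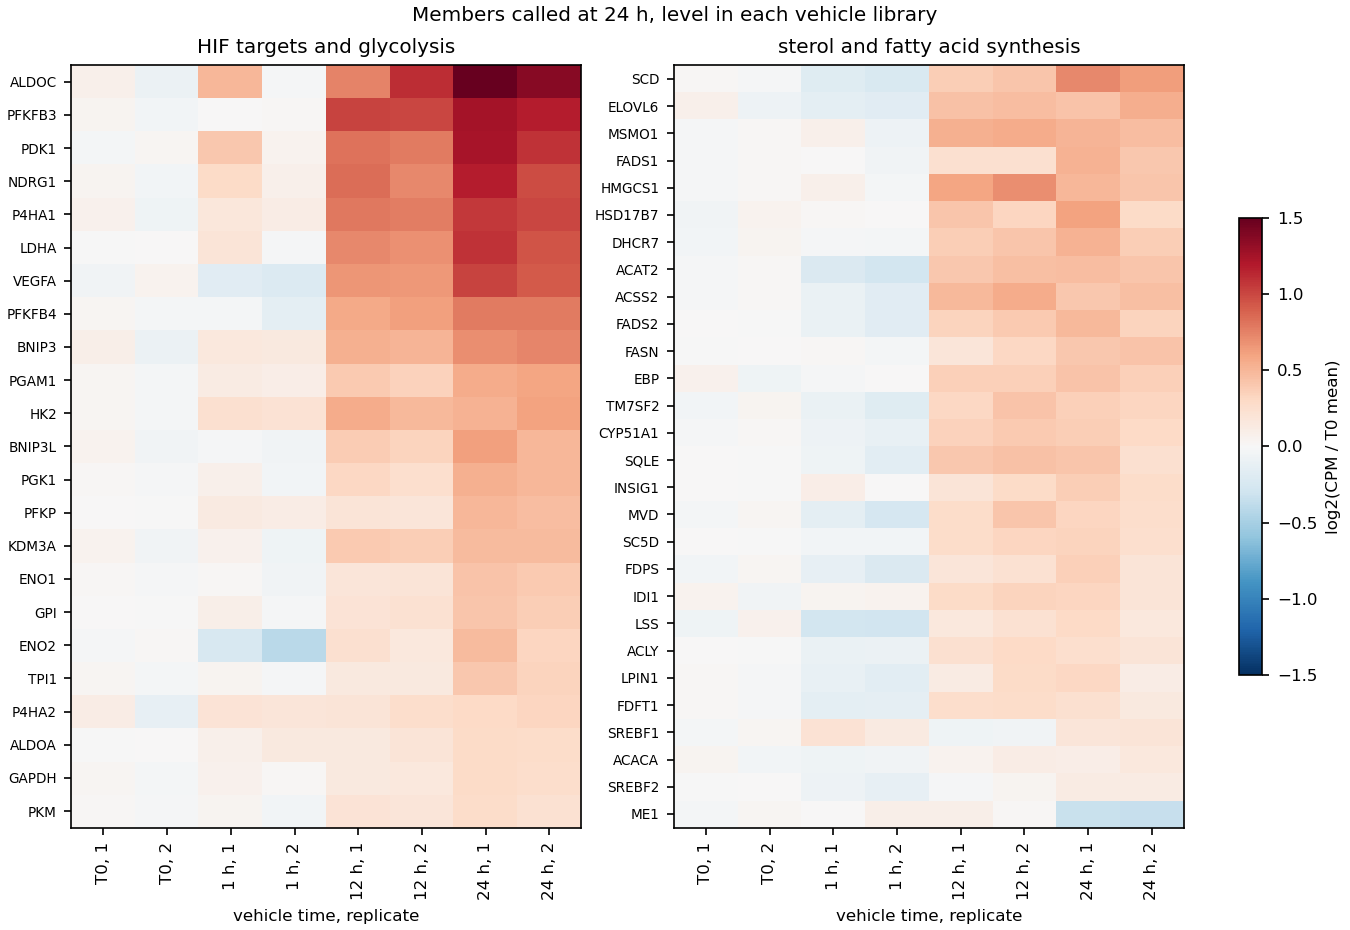
Level of the members called at 24 h, as log2(CPM / mean CPM of the 2 T0 libraries), in each of the 8 vehicle libraries of BT474, for HIF targets and glycolysis (left) and for sterol and fatty acid synthesis (right). Members with a mean under 1 CPM over the T0 and 24 h libraries, and a few genes not reported here, are left out. Glycolytic rows darken from 12 h to 24 h, and sterol rows reach their level by 12 h. ME1 is blue at 24 h.

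The core of the hypoxia response element, ACGTG on either strand, which also lies in the E-box CACGTG, was found before the start of 13 of the 32 members with a promoter entry (40.6%) and of 21.7% of all promoters. The windows were chosen as for E2F. They are read on the strand of the gene, where the letters appear as CACGT.
ALDOC, chr17:28576896-28576953, minus strand: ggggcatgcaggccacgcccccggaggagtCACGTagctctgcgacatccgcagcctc
P4HA1, chr10:73096918-73096982, minus strand: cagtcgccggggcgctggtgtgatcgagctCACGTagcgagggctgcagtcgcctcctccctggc
In ALDOC the match lies between 24 and 28 bases before the start, and in P4HA1 between 82 and 86 bases.

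Lipid synthesis genes rose as well, and those of sterol synthesis for the most part before 12 h. Of 26 genes of sterol synthesis, 20 were higher at 24 h and 0 were lower (median 0.30). At 12 h the median was already 0.30, and between 12 h and 24 h it moved by 0.0042, whereas at 1 h 6 had been lower and 1 higher. HMGCS1, an early enzyme of the mevalonate pathway, was at 522 and 536 CPM at T0 and 747 and 708 CPM at 24 h (log2 0.46 ± 0.057). INSIG1, which holds SREBP in the endoplasmic reticulum, was at 188 and 187 CPM at T0 and 243 and 227 CPM at 24 h (log2 0.32 ± 0.049, adjusted p = 7.46e-06). MVK, PMVK and NSDHL did not pass. The sterol regulatory letters TCACNCCAC were found in 1 of the 19 members with an entry (5.26%), SREBF2, and in 0.837% of all promoters. When both lines were fitted together, 10 of the 26 were higher.

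Of 18 genes of fatty acid synthesis, 10 were higher and 1 was lower (median 0.16), or 5 higher when both lines were fitted together. SCD, the desaturase that makes monounsaturated fatty acids, was at 1555 and 1527 CPM at T0 and 2537 and 2371 CPM at 24 h (log2 0.67 ± 0.036, adjusted p = 1.17e-16). FASN, fatty acid synthase, was at 2867 and 2889 CPM at T0 and 3806 and 3858 CPM at 24 h (log2 0.41 ± 0.034), and FADS2, a desaturase of polyunsaturated fatty acids, at 1122 and 1111 CPM at T0 and 1562 and 1413 CPM at 24 h (log2 0.41 ± 0.039). These 3 were among the genes with the largest rise in CPM. After 12 h SCD, FASN and FADS2 were at 0.39, 0.25 and 0.37, and from 12 h to 24 h they moved by a further 0.28, 0.17 and 0.046. ME1, malic enzyme, which supplies NADPH, fell (-0.34 ± 0.067). Among 16 genes of fatty acid oxidation and storage, 3 were higher and 1 lower.

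Ribosomal protein genes fell. Of 77 cytosolic ribosomal protein genes, 66 were lower at 24 h and 0 higher, with a median of -0.23, beside -0.10 at 1 h for the small subunit and -0.11 for the large. The shift was small and broad. RPL23, a large-subunit protein, was at 3702 and 3619 CPM at T0 and 3034 and 2853 CPM at 24 h (log2 -0.31 ± 0.033), and RPS12, a small-subunit protein, at 266 and 262 CPM at T0 and 194 and 186 CPM at 24 h (log2 -0.48 ± 0.045, adjusted p = 2.64e-10). RPL19 was at 6977 and 6858 CPM at T0 and 6279 and 5886 CPM at 24 h (log2 -0.19 ± 0.039) and was not called without the first T0 library or the second 24 h library. Without the first T0 library 41 of the 77 were lower, and without the second 24 h library 42. Ribosomal protein genes have many processed pseudogenes, and how reads that fit several places were counted is not given in the sources used here, so their levels are uncertain. Of 30 ribosome biogenesis genes, 4 were lower and 0 higher (median -0.11), or 1 lower without the first T0 library and 1 without the second 24 h library. Of 18 tRNA synthetases 5 were lower and 0 higher, or 2 to 3 lower when any 1 of the 4 libraries was left out.

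The mitochondrial ribosomal RNAs fell by different amounts. RNR1, the 12S RNA, was at 7284 and 7807 CPM at T0 and 4310.3 and 4538 CPM at 24 h (log2 -0.77 ± 0.074, adjusted p = 4.7e-10), and RNR2, the 16S RNA and the most abundant row of the table, at 31929 and 34725 CPM at T0 and 28145 and 28755 CPM at 24 h (log2 -0.23 ± 0.054). The fall of RNR1 was larger than the spread within either group, whereas the T0 and 24 h libraries of RNR2 stood closer, and RNR2 was no longer called without the second T0 or the first 24 h library, with DESeq2 on all libraries (log2 -0.22, adjusted p = 0.136) or with both lines in 1 fit (adjusted p = 0.0587). Of 22 mitochondrial tRNAs, a list added after the values were seen, 20 were lower and 0 higher, with a median of -0.97. TRNI, the isoleucine tRNA, was at 87.1 and 107 CPM at T0 and 27.1 and 29.9 CPM at 24 h (log2 -1.76 ± 0.19), and TRNS2, a serine tRNA, at 11.1 and 14.2 CPM at T0 and 4.19 and 3.99 CPM at 24 h (log2 -1.62 ± 0.21). The mitochondrial tRNA genes were at a median of -0.33 after 12 h. These RNAs are short and mostly outside what an mRNA kit captures, so their counts say little of their amount in the cell. The protein-coding genes of the mitochondrial genome were not analysed here. The nuclear genes of oxidative phosphorylation have short transcripts, and the group of shortest transcripts given above had a median of -0.042 as a whole. Of 50 nuclear genes of oxidative phosphorylation, 11 were lower and 0 higher (median -0.076), and 1 was lower without the first T0 library, 2 without the second 24 h library and 7 without either of the other libraries.

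Of 6 other structured noncoding RNAs that were tested, a list added after the values were seen, 3 were lower and 0 higher, or 1 lower with DESeq2 and 1 without the first T0 library. RN7SK, the RNA that restrains the elongation factor P-TEFb, was at 55.5 and 25.5 CPM at T0 and 10.7 and 8.73 CPM at 24 h (log2 -2.10 ± 0.19), so that the T0 libraries differed from each other by more than 2-fold. SNORD3A, the U3 RNA of ribosomal RNA processing, was at 3.10 and 0.667 CPM at T0 and 0.390 and 0.474 CPM at 24 h (log2 -2.18 ± 0.46), and without the first T0 library its log2 fold change was -0.59 and did not pass. Outside that list, H1-4, a linker histone, was at 1.99 and 1.08 CPM at T0 and 0.488 and 0.474 CPM at 24 h (log2 -1.71 ± 0.37), or -1.14 and not called without that library. The first T0 library was the higher one in all 3.

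Metallothioneins, small proteins that bind zinc and copper, fell. Of 5 genes of this list that were tested, 4 were lower at 24 h and 0 higher (median -1.11). At 12 h the median was -0.54, and no member passed edgeR's test. MT2A was at 22.0 and 22.6 CPM at T0 and 4.39 and 10.5 CPM at 24 h (log2 -1.54 ± 0.24, adjusted p = 9.06e-06), MT1F at 3.22 and 3.38 CPM at T0 and 1.12 and 1.58 CPM at 24 h (log2 -1.26 ± 0.21) and the zinc exporter SLC30A1 at 27.1 and 29.6 CPM at T0 and 7.46 and 19.99 CPM at 24 h (log2 -0.99 ± 0.20). The first 24 h library was the lower in each, and the list's median in the 2 libraries was -1.86 and -0.49. With both lines in 1 fit, 2 were lower. Metallothionein genes are close copies of one another, so reads may be shared between them. The metal response element, searched as TGCACNC and TGCGCNC, was found before all 3 of the members with a promoter entry and in 30.4% of all promoters. The windows of MT2A and MT1X nearest the start were these.
MT2A, chr16:56608546-56608583, plus strand: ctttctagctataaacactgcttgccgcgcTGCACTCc
MT1X, chr16:56682387-56682453, plus strand: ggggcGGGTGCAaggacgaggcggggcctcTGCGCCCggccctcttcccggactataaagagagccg
The 250 bases of MT2A held 7 matches in all and those of MT1X 4.

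Genes of oxidative defence moved in the same direction by less. Of 15, 6 were lower and 0 higher (median -0.12). SLC7A11, the cystine importer, was at 6.71 and 6.97 CPM at T0 and 4.24 and 3.48 CPM at 24 h (log2 -0.84 ± 0.16), and NQO1, a quinone reductase, at 251 and 246 CPM at T0 and 196 and 194 CPM at 24 h (log2 -0.35 ± 0.039). CYP1A1, a cytochrome P450 induced through the aryl hydrocarbon receptor, went the other way, at 24.5 and 21.7 CPM at T0 and 68.6 and 59.7 CPM at 24 h (log2 1.46 ± 0.091, adjusted p = 7.51e-15), having been at 2.30 after 1 h and 1.04 after 12 h. Of 8 targets of that receptor, a list added after the values were seen, 2 were higher and 3 lower (median -0.25). CYP1B1 was the other one higher (0.38 ± 0.11), with 1 of the 8 called higher when either T0 library or the second 24 h library was left out, and CYP1A2, NQO1 and UGT1A6 were lower (-0.76 ± 0.14, -0.35 ± 0.039 and -1.25 ± 0.34).

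Many genes that were higher after 1 h of vehicle were no longer so at 24 h. Of 18 immediate early genes, which respond within an hour to growth factors and stress, 15 were higher after 1 h (median 0.92), and 4 were higher and 3 lower at 24 h (median -0.072). FOS, an AP-1 subunit, was at 0.755 and 1.59 CPM at T0 and 3.22 and 3.04 CPM at 24 h (log2 1.47 ± 0.23), and EGR1, a zinc finger factor, at 12.7 and 15.9 CPM at T0 and 26.8 and 30.7 CPM at 24 h (log2 1.03 ± 0.091). Both groups were apart in these genes, and at 1 h the log2 fold changes had been 2.34 and 2.56. JUN, NR4A1 and FOSB did not pass at 24 h (-0.13 ± 0.069, -0.19 ± 0.11 and -0.083 ± 0.50). Of 16 p53 targets, 13 were higher at 1 h (median 0.90), and 4 were lower and 0 higher at 24 h. MDM2, which marks p53 for degradation, was at 103 and 104 CPM at T0 and 103 and 105 CPM at 24 h (log2 0.0064 ± 0.044) after 1.62 at 1 h.

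Of 17 genes of ERK feedback, 13 were higher at 1 h, and 6 were higher and 2 lower at 24 h (median 0.085), or 3 higher without the first T0 library and 2 without the second 24 h library. ETV5 and ETV4, ETS factors raised by ERK signalling, were at 5.04 and 4.05 CPM at T0 and 8.73 and 9.64 CPM at 24 h and 4.49 and 4.36 CPM at T0 and 7.36 and 8.49 CPM at 24 h, with log2 fold changes of 1.00 ± 0.13 and 0.85 ± 0.12. DUSP4, an ERK phosphatase, was lower, at 474 and 458 CPM at T0 and 359 and 383 CPM at 24 h (log2 -0.33 ± 0.038), and EPHA2, an ephrin receptor, at 11.8 and 11.5 CPM at T0 and 6.87 and 6.83 CPM at 24 h (log2 -0.77 ± 0.11). The classical feedback genes DUSP6 and SPRY2 did not pass (0.18 ± 0.066 and -0.12 ± 0.19).

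Among the ERBB receptors the differences were modest. EGFR was at 73.2 and 64.8 CPM at T0 and 110.2 and 104 CPM at 24 h (log2 0.63 ± 0.067, adjusted p = 5.03e-09) and had been at 0.45 after 12 h. ERBB2, which gives HER2, was at 8363 and 8331 CPM at T0 and 7099.6 and 7397 CPM at 24 h (log2 -0.20 ± 0.025, adjusted p = 1.11e-07), and most of its fall came after 12 h (-0.029 at 12 h). Its amplicon neighbours GRB7 and STARD3 did not pass (-0.019 ± 0.051 and 0.072 ± 0.033), nor did ERBB3 and ERBB4 (-0.088 ± 0.038 and -0.047 ± 0.072).

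Genes of actin and adhesion were among those that fell. Of 16 YAP and SRF targets that were tested, 9 were lower and 1 was higher at 24 h (median -0.26). At 12 h 2 were lower and 1 higher, and between 12 h and 24 h 5 fell and 11 did not pass (median -0.086). ACTG1 and ACTB, the cytoplasmic actins, were at 3191 and 3137 CPM at T0 and 2500.2 and 2429 CPM at 24 h and 4299 and 4186 CPM at T0 and 3595 and 3516 CPM at 24 h, with log2 fold changes of -0.36 ± 0.028 and -0.25 ± 0.028. FLNA, an actin cross-linker, was at 1799.7 and 1799.8 CPM at T0 and 1560.4 and 1545 CPM at 24 h (log2 -0.21 ± 0.029), and VCL, which ties actin to adhesions, at 196 and 193 CPM at T0 and 166 and 159.7 CPM at 24 h (log2 -0.26 ± 0.042). The groups did not overlap in any of these. CCN1, a matricellular YAP target, was the member that rose, at 12.2 and 11.3 CPM at T0 and 16.2 and 16.7 CPM at 24 h (log2 0.48 ± 0.090). TGFBI, ID1 and ID4, which respond to TGF-beta or BMP signals, fell by 1.19, 1.15 and 0.99 on the log2 scale, and of 13 SMAD targets 3 were lower and 1 was higher. The higher one was BMP4, a BMP ligand (0.56 ± 0.15), and 0 were called higher without the first T0 or the first 24 h library.

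Keratins and secreted proteins of the epithelium moved in both directions. KRT8 and KRT18, the paired keratins of simple epithelium, were at 1855 and 1812 CPM at T0 and 1331 and 1355 CPM at 24 h and at 711 and 733 CPM at T0 and 567 and 583 CPM at 24 h, with log2 fold changes of -0.45 ± 0.030 and -0.33 ± 0.036. KRT80 was lower too, at 56.3 and 55.7 CPM at T0 and 36.9 and 35.0 CPM at 24 h (log2 -0.64 ± 0.058). ANXA1, a phospholipid-binding protein, was at 16.8 and 16.2 CPM at T0 and 6.19 and 6.87 CPM at 24 h (log2 -1.33 ± 0.11, adjusted p = 6.27e-12). The opposite held for CEACAM6, an adhesion protein of glandular cells, at 153 and 145 CPM at T0 and 266 and 266 CPM at 24 h (log2 0.84 ± 0.041, adjusted p = 1.65e-17), and for SCGB2A2, mammaglobin, at 12.1 and 12.7 CPM at T0 and 22.9 and 21.5 CPM at 24 h (log2 0.84 ± 0.094). CDH2, N-cadherin, was at 15.7 and 15.4 CPM at T0 and 30.7 and 28.8 CPM at 24 h (log2 0.94 ± 0.091), while the mesenchymal marker VIM had a log2 fold change of -0.086 ± 0.068 and did not pass. Of 8 basal and mesenchymal markers that were tested CDH2 was the 1 higher, and TP63 and TWIST1, factors of basal and mesenchymal cells, were the 2 lower (-0.76 ± 0.18 and -0.35 ± 0.095), or 0 lower without the first T0 library and 1 without the second 24 h library. Of 37 genes of junctions, secretion and stratified keratins that were tested, 5 were higher and 4 lower, and of 11 luminal markers 3 and 6.

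Genes of the estrogen response moved in both directions. ESR1, the estrogen receptor, was at 109 and 107 CPM at T0 and 123 and 124 CPM at 24 h (log2 0.20 ± 0.051). The estrogen targets TFF1, GREB1 and PGR fell, with TFF1 at 67.9 and 68.5 CPM at T0 and 50.4 and 43.4 CPM at 24 h (log2 -0.55 ± 0.065) and PGR at 877 and 943 CPM at T0 and 760.4 and 715 CPM at 24 h (log2 -0.30 ± 0.052). Of 20 genes of the estrogen response, 3 were higher and 7 were lower, or 1 higher without the second T0 library. IGFBP5, a binding protein of insulin-like growth factors, had the largest rise in CPM of any gene named by the rule, at 7673 and 7429 CPM at T0 and 9024 and 8203 CPM at 24 h (log2 0.19 ± 0.042, adjusted p = 0.00126), and was not called without the first 24 h library.

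**Figure D4:**
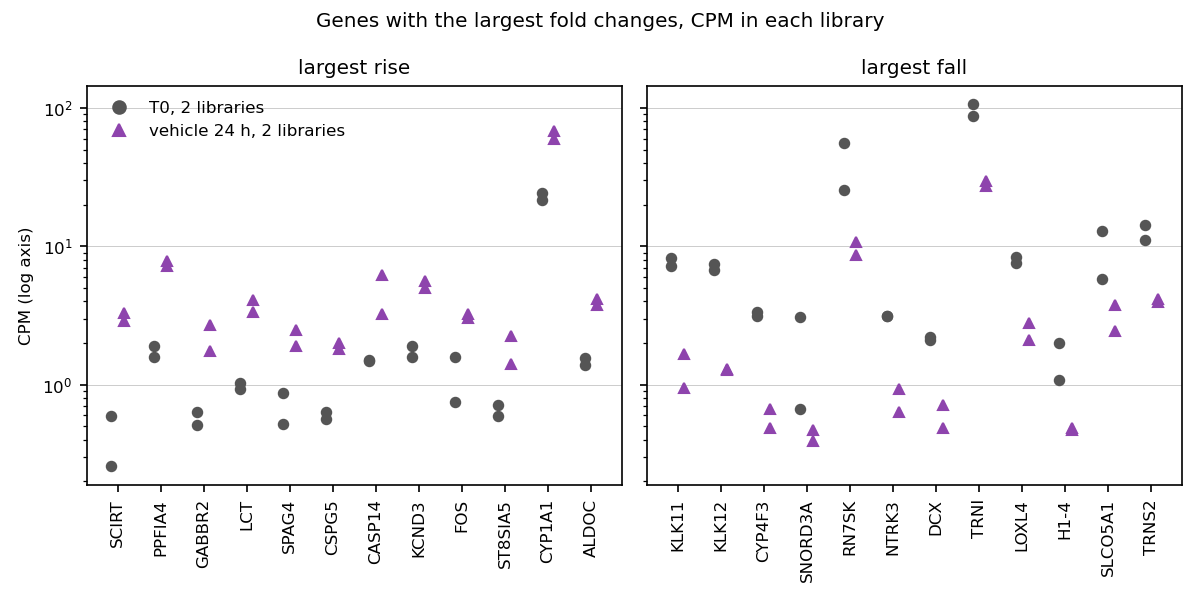
CPM on a log axis in the 2 T0 libraries (circles) and the 2 vehicle 24 h libraries (triangles) for the 12 genes with the largest rise and the 12 with the largest fall among called genes with a mean of at least 1 CPM, no overlap and a plain name. In KLK12 the T0 libraries are at 6.79 and 7.44 CPM and the 24 h libraries at 1.27 and 1.30. The T0 libraries of SNORD3A, RN7SK and SLCO5A1 stand far from each other.

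The largest fold changes were in genes of low to moderate level. SCIRT, a long noncoding RNA, was at 0.596 and 0.256 CPM at T0 and 3.32 and 2.88 CPM at 24 h, a log2 fold change of 2.77 ± 0.34 (adjusted p = 1.3e-07), and PPFIA4, a liprin scaffold protein, at 1.59 and 1.90 CPM at T0 and 7.90 and 7.27 CPM at 24 h (log2 2.13 ± 0.22). GABBR2, a subunit of the GABA-B receptor, and LCT, lactase, followed at 1.95 ± 0.33 and 1.92 ± 0.24. In all of these the 24 h libraries were more than 2-fold above the T0 libraries. SPAG4, CSPG5, CASP14, KCND3 and ST8SIA5 had log2 fold changes between 1.46 and 1.68, with 24 h levels between 1.83 CPM for ST8SIA5 and 5.31 CPM for KCND3. SPAG4 did not pass without the first T0 library, nor ST8SIA5 without the first 24 h library.

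Kallikreins led the falls. KLK11 and KLK12, secreted serine proteases encoded side by side with related genes, were at 7.19 and 8.26 CPM at T0 and 1.66 and 0.948 CPM at 24 h and at 6.79 and 7.44 CPM at T0 and 1.27 and 1.30 CPM at 24 h, with log2 fold changes of -2.59 ± 0.21 and -2.46 ± 0.21, and -1.496 and -2.23 by 12 h. Of 5 kallikreins that were tested, a list added after the values were seen, 3 were lower and 0 higher. CYP4F3, a hydroxylase of leukotriene B4, was at 3.14 and 3.33 CPM at T0 and 0.488 and 0.672 CPM at 24 h (log2 -2.44 ± 0.30). The libraries of the groups were far apart in these genes. NTRK3, the neurotrophin-3 receptor, DCX, a microtubule protein of migrating neurons, LOXL4, a lysyl oxidase, and SLCO5A1, of the organic anion transporter family, had log2 fold changes of -2.03 ± 0.29, -1.82 ± 0.30, -1.72 ± 0.17 and -1.62 ± 0.22. For SLCO5A1 the T0 libraries were at 12.99 and 5.85 CPM and the 24 h libraries at 2.44 and 3.75 CPM.

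The counts of the remaining lists can be set beside the 5.17% higher and 6.23% lower of all genes, and in several lists the share called was larger than that. That background is a low bar, since it includes 5070 genes at the detection limit. In the groups by transcript length given above, between 5.92% and 12.5% were higher and up to 11.5% lower. A share above that of all genes therefore does not by itself set a list apart. Of 31 genes of the integrated stress response, 4 were higher and 4 lower, of 23 of the unfolded protein response 2 and 3, of 32 of lysosome and autophagy 2 and 3, of 19 clock genes 3 and 2, of 32 interferon response genes 1 and 2, and of 15 antigen presentation genes 2 and 0. Of 13 heat shock genes, 0 were higher and 3 lower, of 19 FOXO and insulin signalling genes 0 and 2, of 13 NF-kB targets and chemokines 0 and 1, and of 15 Wnt and Notch targets 1 and 0. Of 20 androgen and glucocorticoid response genes, 3 were higher and 5 lower, of 10 retinoid genes 1 and 1, of 14 matrix genes 2 and 3, of 5 sterol efflux genes 0 and 1, and of 15 histone genes, a list added later, 0 and 4. With 1 library left out, the lower counts ranged from 2 to 4 for the integrated stress response, from 2 to 3 for the androgen and glucocorticoid genes and from 1 to 4 for histones. Single members could still differ clearly. BHLHE40, a repressor tied to the clock and to hypoxia, was at 5.96 and 7.49 CPM at T0 and 13.7 and 13.3 CPM at 24 h (log2 1.02 ± 0.15), and CTSD, the lysosomal protease cathepsin D and an estrogen target, at 213 and 216 CPM at T0 and 154 and 149 CPM at 24 h (log2 -0.50 ± 0.040).

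The ligand-treated cells of the same day share the T0 libraries, so their values are given only beside those of the vehicle. Replication genes had a median log2 fold change against T0 of 0.47 with vehicle, 0.74 with EGF and 0.79 with HRG. For mitosis genes the medians were -0.31, 0.041 and 0.12, for HIF targets and glycolysis 0.40, 0.80 and 0.82, and for metallothioneins -1.11, -0.98 and -0.89. Medians over all genes were -0.014, -0.030 and -0.023. IGFBP5 was at 0.19, -0.80 and -1.14, and CYP1A1 at 1.46, 1.51 and 1.47.

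The same comparison in BT474R shares no library with that in BT474, and the difference between the 24 h changes of the lines was tested in 1 fit of all 40 libraries. Of 24641 genes, the change in BT474 was higher in 3.37% and lower in 3.09%. Of the 49 replication genes, 15 rose more in BT474 and 0 less, with medians of 0.47 in BT474 and 0.29 in BT474R. E2F1 changed by 0.98 in BT474 and 0.20 in BT474R, a difference of 0.78 ± 0.10 (adjusted p = 3.07e-06). UHRF1 rose in BT474 and was at -0.057 in BT474R, a difference of 0.79 ± 0.14. Of the 46 mitosis genes 5 fell more in BT474 and 0 less, and of the 77 ribosomal protein genes 32 fell more and 0 less, with a median of -0.039 in BT474R. RPL13A was at -0.32 in BT474 and 0.30 in BT474R, a difference of -0.63 ± 0.080.

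**Figure D5:**
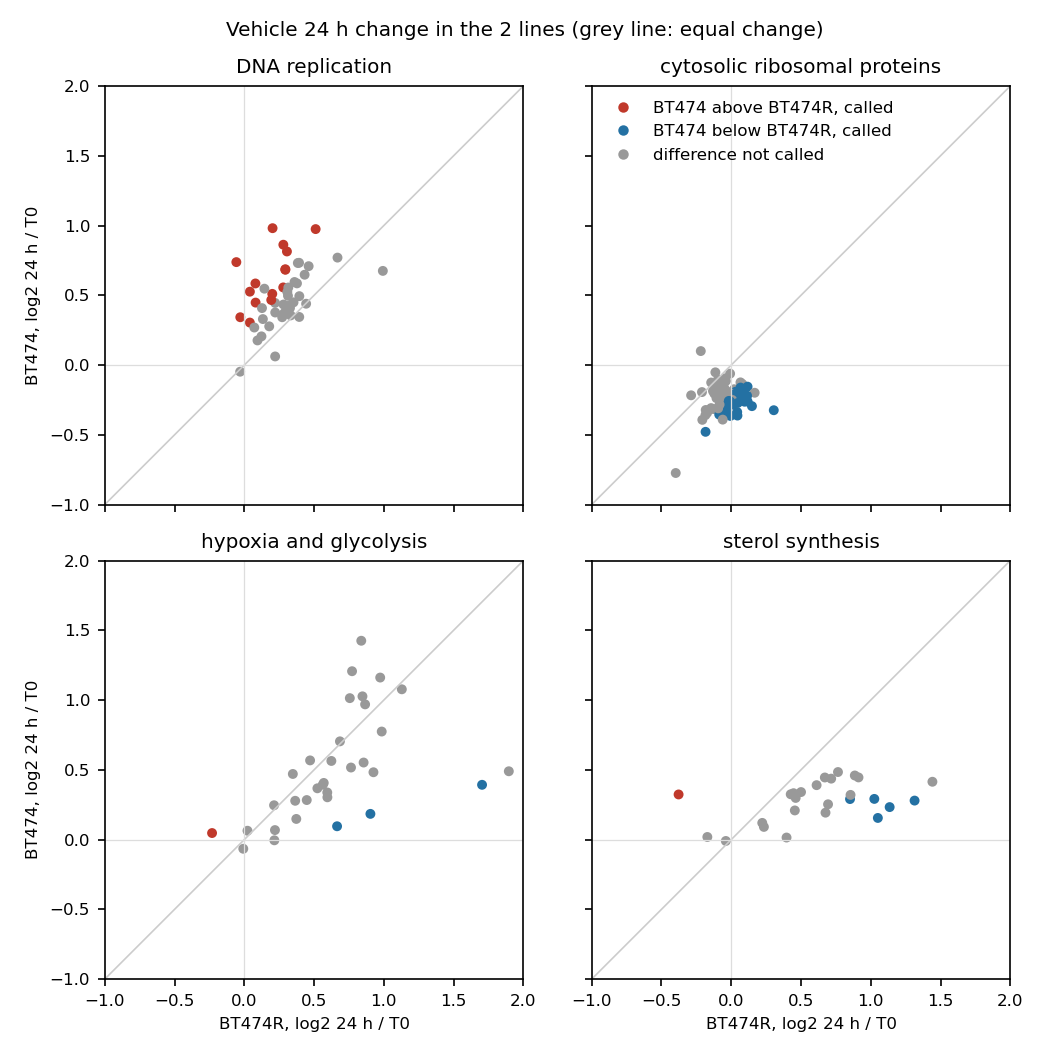
Log2 fold change of vehicle 24 h over T0 in BT474 (vertical) against BT474R (horizontal) for list members that averaged 1 CPM or more in BT474, from 1 fit of all 40 libraries. Red and blue mark a called difference between the lines, grey none, and the grey diagonal equal change. Replication genes lie above the diagonal in most cases, and ribosomal protein genes below 0 in BT474 and near 0 in BT474R.

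Sterol synthesis genes had a higher median in BT474R (0.67) than in BT474 (0.29), and of 26 members 5 rose more in BT474R and 1 more in BT474. FDPS, which makes farnesyl diphosphate, changed by 0.28 in BT474 and 1.31 in BT474R, a difference of -1.03 ± 0.13 (adjusted p = 1.39e-06). HIF targets and glycolysis had medians of 0.40 and 0.64, and 1 of 36 members was higher and 3 were lower in BT474 than in BT474R. Of 17 ERK feedback genes 6 were higher in BT474 and 1 lower, and SPRY4, an inhibitor of the pathway, was at 0.36 and -0.93. CEACAM6 changed by 0.83 in BT474 and -0.34 in BT474R, a difference of 1.17 ± 0.066 (adjusted p = 8.34e-15), and VIM by -0.087 and 1.48, a difference of -1.56 ± 0.13. Of the 20 estrogen response genes 7 were lower and 0 higher in BT474, among them PGR at -0.30 and 0.32. BT474R is a single clone, so a difference between the lines cannot be told apart from one between clones.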

How the data were processed

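RNA was sequenced from 40 libraries of BT474 and BT474R, 2 per group. The authors deposited raw read counts per gene, made from paired reads that were trimmed with Trim Galore 0.6.6, aligned to GRCh38.p13 with Rsubread and counted with featureCounts, with FastQC and MultiQC as quality checks. Which annotation release was used, whether strand was used, and how reads with several matches were handled are not given in the sources used here. All 40 count columns were used.

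Counts were tested with edgeR 4.0.16 (quasi-likelihood test, TMM scaling) in R 4.3.3, in 1 fit of the 20 BT474 libraries with a mean per group, over the 25146 genes counted at least once in 10 or more libraries. P-values were adjusted by Benjamini-Hochberg over all genes tested, and genes under 0.05 were called. The difference between the lines came from 1 fit of all 40 libraries over 24641 genes counted at least once in 20 or more. CPM were scaled within each fit, so they differ slightly between fits. Standard errors are the log2 fold change divided by the root of its F statistic. Library totals in BT474 lay between 19200632 and 29098915 counts, and replicates of a group differed by more than sampling noise. A gene with 3 counts or fewer in each library of a group was taken to be at the detection limit. The table repeats some gene names with a number for further copies (5078 rows, 2.96% of counts), which were kept apart.

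Besides list members, the genes named are, among called genes with no overlap and a plain name, the 12 with the largest log2 fold change in each direction at a mean of at least 1 CPM, and the 6 with the largest CPM difference in each direction. For the lines they are the 6 with the largest difference in each direction, among called genes with a plain name. Their mean over the compared libraries of both lines was at least 1 CPM, so a gene could pass through its level in 1 line. The comparison and the gene lists were chosen with earlier results of these data known, and 5 lists were added after the values were seen. On simulated counts for the 24 h comparison (24754 genes, 200 changed), 173 changed genes were recovered, all in the right direction, with 15 false calls. Alternatives were DESeq2 1.42.0, its size factors within edgeR, 2 other filters, fewer or more libraries in the fit, a replicate block, equal depth, summed copies, and each library left out in turn. Some genes are not reported here.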

Additional observations from a re-analysis of the deposited data

Results flagged for a closer look

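The change from T0 to vehicle 24 h differed between BT474 and BT474R in the 12 genes named by the rule for the lines, by the test of that difference in edgeR's quasi-likelihood fit of all 40 libraries. Differences are log2 fold change in BT474 minus that in BT474R. CYP1A1, the cytochrome P450 of the aryl hydrocarbon response, rose in BT474 (1.46) and fell in BT474R (-1.81), a difference of 3.27 ± 0.24 (adjusted p = 1.42e-11). ETV4, an ETS factor, was at 0.84 and -1.33, a difference of 2.17 ± 0.29. EMP1, a membrane protein of epithelia, differed by 2.19 and OAT, ornithine aminotransferase, by 1.93, with little movement in BT474 itself (-0.081 and 0.13). RASD1, a Ras-like protein, differed by 2.604 and GRIK4, a glutamate receptor subunit, by 2.03. RASD1 and GRIK4 lost the call when depth was made equal. Several of these levels were low in 1 line. RASD1 was at 0.155 and 0.147 CPM at T0 and 0.423 and 0.418 CPM at 24 h in BT474. In BT474R, OAT was at 0.900 and 0.889 CPM at T0 and 0.231 and 0.282 CPM at 24 h, and GRIK4 at 0.0769 and 0.376 CPM at 24 h.

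In the other direction, RN7SK differed by -3.09 ± 0.51, falling in BT474 (-2.10) and standing at 0.99 in BT474R, with T0 libraries of BT474 that differed from each other. CYP4F3 differed by -2.90 (adjusted p = 0.00202) and LOXL4 by -2.43 (adjusted p = 8.76e-07), both lower at 24 h in BT474. PDZD7, a scaffold protein, and NYNRIN differed by -2.55 and -2.30, with a larger change in BT474R (2.30 and 1.80) than in BT474 (-0.26 and -0.50). MAT1A, a methionine adenosyltransferase, differed by -2.16, a call lost at equal depth. CYP4F3 and MAT1A were under 1 CPM in every BT474R library compared, at 0.120 and 0.515 CPM and at 0.120 and 0.281 CPM at T0. BT474R is 1 clone, and what sets these differences was not tested.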

How the results depend on the processing

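At 24 h, 1299 genes were called higher and 1567 lower. Across the alternatives that kept all libraries of the groups, the counts lay within 1.5 times of the main ones except that 12 h against T0 gave 2511 genes with only the compared libraries in the fit and 1042 with both lines in 1 fit, against 1611, and 24 h against 12 h gave 557 with both lines in 1 fit, against 907. With 1 library left out in turn, 898 to 1048 genes were higher and 731 to 998 lower at 24 h, 804 to 940 differed at 1 h, 875 to 896 at 12 h, 441 to 584 between 12 h and 24 h and 870 to 1477 between the lines. These fits have a lone library in 1 group, which is assumed to vary like the rest. No named gene changed direction. Counts were compared by size only, and which direction held more genes did change, as given above. Of the counts for lists, 998 stayed within 1.5 times and 146 did not, and of the values for named genes 630 kept their call and 24 lost it.

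The replicate numbers were not taken to pair the samples, since not every pair of BT474 groups had deviations of same-numbered libraries that correlated above 0.1 over 15021 genes. The correlation was 0.0825 for T0 and vehicle 24 h and 0.118 for vehicle 12 h and 24 h, and over all pairs it ranged from -0.0663 to 0.298, the highest being vehicle and HRG at 24 h. With a replicate block, 1386 genes were higher and 1667 lower at 24 h, 1787 differed at 1 h, 1730 at 12 h, 1017 between 12 h and 24 h and 1724 between the lines. Having 2 libraries per group limits small differences, of which the test recovered 70.1% at a log2 change of 0.5 in simulated counts.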
